A study of Mus musculus with 10 samples.

Results

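The Egr genes Egr1, Egr2 and Egr3 and the Nr4a genes Nr4a1, Nr4a2 and Nr4a3 were followed through 4 lists of p65 binding peaks from mouse T cells. Their peaks were chosen by position: an entry was counted where its summit, the base of highest signal, lay inside a member gene, or within 50 kb with that gene as the nearest protein-coding gene. This gave 90 of 26132 entries, of which 44 of 13078 were in the stimulated Treg list, 7 of 3442 in the unstimulated Treg list, 34 of 6480 in the stimulated Tconv list and 5 of 3132 in the unstimulated Tconv list. The farthest member entry lay 40.76 kb from Egr2 (12.5-fold in stimulated Treg), and the nearest entry left out by distance lay 50.86 kb from Egr2 (15.2-fold in stimulated Treg). The study precipitated p65 (RelA), an NF-kB subunit, from regulatory T cells (Treg) and conventional T cells (Tconv) taken from spleen and lymph nodes of mice of the C57BL/6 strain, with no genetic change given in the labels. The stimulated groups were stimulated for 3 h with plate-coated anti-CD3 and soluble anti-CD28, with IL-2 at 10 ng/ml for Treg and 2 ng/ml for Tconv. The unstimulated groups have no culture or IL-2 given, so stimulation cannot be told apart from culture and IL-2, nor cell type from the IL-2 dose in the stimulated groups. Each group had 2 libraries, and 2 further libraries held input chromatin mixed from both cell types, with and without stimulation. The authors deposited 1 list per group made from both libraries together, so there is no spread between replicates, no test is given, and every difference below is between lists. The lists hold no expression values, so the cell type labels were not checked against marker genes. On build mm10, Egr1 lies on chromosome 18 (34861207 to 34864956), Egr2 on chromosome 10 (67534469 to 67542188) and Egr3 on chromosome 14 (70077317 to 70082613). Nr4a1 lies on chromosome 15 (101253902 to 101274795), Nr4a2 on chromosome 2 (57106830 to 57124003) and Nr4a3 on chromosome 4 (48045078 to 48086447).

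Both families are immediate-early genes, transcribed within minutes of antigen receptor engagement by factors already present in the cell. The EGR proteins are zinc-finger transcription factors. Egr1 is driven by serum response factor and ETS partners downstream of MAP kinases, and Egr2 and Egr3 also by NFAT. In mouse T cells Egr2 and Egr3 are known for inducing restraint genes such as Cblb and Dgka. The NR4A proteins are orphan nuclear receptors whose activity follows their abundance. Nr4a1 (Nur77) serves as a reporter of T cell receptor signal strength, the cAMP response element and its binding factors of the CREB family contribute to its induction, and Nr4a factors together are needed for Treg development and maintenance in mice. NF-kB dimers with p65 enter the nucleus after CD3 and CD28 engagement and bind kB sites.

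The promoter sequences of 4 member genes are shown because the stimulated lists had a p65 summit inside each. A further reason is that all 4 held the letters CGTCAC under the stimulated Treg summit. RefSeq windows (GRCm38.p6, which shares coordinates with mm10) run from 250 bases before the transcription start to 50 after it, in the direction of transcription. Capitals mark the 31 bases centred on the stimulated Treg summit.
Nr4a1, chr15:101266596-101266895, plus strand: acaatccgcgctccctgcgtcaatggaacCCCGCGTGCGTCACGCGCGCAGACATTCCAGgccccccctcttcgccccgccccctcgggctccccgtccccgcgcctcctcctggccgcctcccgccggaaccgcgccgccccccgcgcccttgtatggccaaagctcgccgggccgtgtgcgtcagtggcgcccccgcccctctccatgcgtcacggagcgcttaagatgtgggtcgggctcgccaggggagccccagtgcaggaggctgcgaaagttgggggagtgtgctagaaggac
Nr4a2, chr2:57123954-57124253, minus strand: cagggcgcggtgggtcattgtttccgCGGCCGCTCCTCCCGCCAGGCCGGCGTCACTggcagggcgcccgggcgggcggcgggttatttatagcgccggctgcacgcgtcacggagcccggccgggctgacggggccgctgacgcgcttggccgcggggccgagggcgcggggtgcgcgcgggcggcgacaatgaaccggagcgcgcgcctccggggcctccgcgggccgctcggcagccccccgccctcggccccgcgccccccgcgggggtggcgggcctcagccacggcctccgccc
Nr4a3, chr4:48045055-48045354, plus strand: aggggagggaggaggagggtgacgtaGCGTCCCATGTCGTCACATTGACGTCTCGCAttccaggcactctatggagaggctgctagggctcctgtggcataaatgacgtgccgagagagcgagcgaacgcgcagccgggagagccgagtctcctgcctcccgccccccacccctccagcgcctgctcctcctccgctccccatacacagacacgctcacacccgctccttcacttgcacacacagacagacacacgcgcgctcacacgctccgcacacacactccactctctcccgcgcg
Egr2, chr10:67537619-67537918, plus strand: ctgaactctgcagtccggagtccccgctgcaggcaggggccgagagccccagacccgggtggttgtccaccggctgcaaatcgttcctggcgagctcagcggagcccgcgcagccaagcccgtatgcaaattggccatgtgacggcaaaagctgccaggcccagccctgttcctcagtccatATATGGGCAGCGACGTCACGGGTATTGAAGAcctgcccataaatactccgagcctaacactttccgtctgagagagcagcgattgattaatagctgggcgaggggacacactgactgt

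The promoters of the Nr4a genes held p65 summits at nearly the same distance from the start in stimulated Treg, and less so in stimulated Tconv. In stimulated Treg the summits lay 206 bp (Nr4a1), 209 bp (Nr4a2) and 209 bp (Nr4a3) before the transcription start, with fold enrichments over the local background of 95.3, 21.7 and 42.5. In stimulated Tconv they lay 195, 241 and 231 bp before it, with 61.4-, 16.1- and 33.8-fold. Over the 3103 genes with a stimulated Treg summit in a promoter window, the strongest such summit lay at a median of 60.0 bp before the start (quartiles 22.0 and 112), and 1.90% lay between 200 and 215 bp. For the 1874 genes with one in stimulated Tconv the median was 61.0 bp, and 1.87% lay between 200 and 215 bp. None of the stimulated Tconv summits of the Nr4a genes lay in that range. The Nr4a summits thus lay farther upstream than most, a pattern picked out after its values were seen. In Egr2 the window shown held a weaker summit of the locus, 53 bp before its start in stimulated Treg (23.0-fold) and 17 bp before it in stimulated Tconv (13.6-fold). Overlapping windows of other Egr2 starts held the same summit, 54 and 114 bp before the start in stimulated Treg. In stimulated Tconv it lay 18 and 78 bp before those starts. The strongest Egr2 summit lay outside the windows, 313 bp before a further Egr2 start in stimulated Treg and 311 bp before it in stimulated Tconv.

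Without stimulation, summits within these windows were found at Nr4a1 and Nr4a3. At Nr4a1 they lay 180 bp before the start in unstimulated Treg (8.19-fold) and 169 bp before it in unstimulated Tconv (6.72-fold). At Nr4a3 the unstimulated Treg summit lay 239 bp before the start (6.14-fold), and the unstimulated Tconv summit lay 310 bp before it and so outside the window (6.46-fold). All 4 member genes with a window had a summit in one in each stimulated list, against 2 in unstimulated Treg and 1 in unstimulated Tconv. Of the 27025 genes with windows, 11.5% had a summit in one for the stimulated Treg list and 7.20% for the unstimulated Treg list. The shares were 6.93% for stimulated Tconv and 6.80% for unstimulated Tconv. The Nr4a2 promoter summit is not among the 90 entries, because it also lies inside the predicted gene LOC105244150, which overlaps the start of Nr4a2 (57123334 to 57124694) and was counted as nearer.

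**Figure D1:**
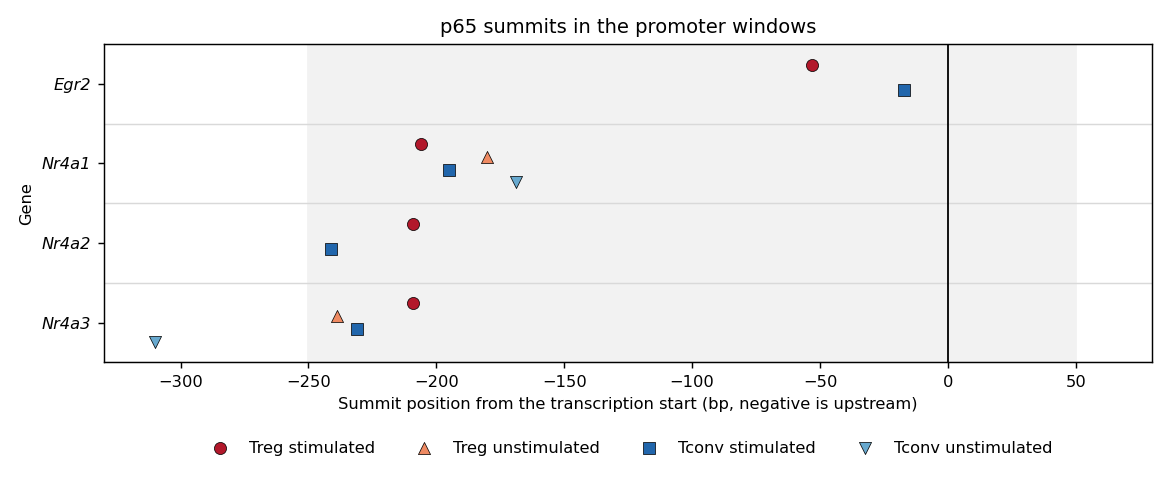
Positions of p65 summits relative to the transcription start (bp, horizontal) at the promoters of Egr2, Nr4a1, Nr4a2 and Nr4a3 (rows), with the promoter window shaded. A mark is drawn for each peak list with a summit there, and Egr2 and Nr4a2 have none from the unstimulated lists. The unstimulated Tconv mark of Nr4a3, 310 bp upstream, lies outside the window. In stimulated Treg the Nr4a summits sit 206 to 209 bp upstream. The Egr2 summit sits 53 bp upstream of the start drawn, which is 1 of several Egr2 starts.

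The 31 bases under the stimulated Treg summit held the letters CGTCAC, the core of a cAMP response element with 1 further base, in 4 of these 4 promoters. The middle of the match lay 4.5 bp from the summit in Nr4a1, 11.5 bp in Nr4a2, 1.5 bp in Nr4a3 and 0.5 bp in Egr2. Each of the 4 windows held a further copy, 168.5 bp from the summit in Nr4a1 and 67.5 bp in Nr4a2, and on the other strand 20.5 bp from it in Nr4a3 and 56.5 bp in Egr2. Of 2991 genes with a stimulated Treg summit at least 15 bases inside a promoter window, 3.51% held CGTCAC on either strand within 15 bases of it, and 7.42% held the shorter CGTCA. Stimulated Tconv summits lay up to 36 bp from the Treg ones, and there 1 of 3 members with such a stretch (Nr4a3) held CGTCAC, against 3.08% of 1785 genes. These letters were searched for after the sequences had been read, and whole windows hold CGTCAC in 9.44% of 32851 cases. The 4 windows shown had a GC content of 72.3% (Nr4a1), 81.7% (Nr4a2), 64.7% (Nr4a3) and 60.0% (Egr2), against a median of 52.7% over all windows, and the part of base composition in these matches was not tested. The full element TGACGTCA was in none of the 8 member windows (1.79% of all windows).

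Within the same 31 bases, 0 of the 4 promoters matched the kB consensus, against 0.970% of the 2991 genes. The kB consensus matched 1 of the 8 windows, in Nr4a1, 207.5 bp from the stimulated Treg summit and next to the transcription start (4.51% of all windows), and the core GGNNTTTCC matched none (5.82% of all windows). A CArG box, the site of serum response factor, matched 4 of the 5 Egr2 windows, which overlap in part (1.63% of all windows). In the Egr2 window shown, it lay 14.5 bp from the stimulated Treg summit. A MEF2 site matched the Nr4a2 window (3.19% of all windows), 46.5 bp from the summit. The EGR site GCGGGGGCG matched Nr4a1 (2.91% of all windows), downstream of the summit, and the ETS core CCGGAA matched Nr4a1 and an Egr2 window (14.9% of all windows). TGANTCA (AP-1, 7.81% of all windows), AAAGGTCA (the NBRE bound by NR4A proteins, 1.51%) and GCGTGGGCG (a further EGR site, 0.612%) matched none. Both strands were searched throughout, CGTCAC contains CGTCA, and a match is a description of the letters alone.

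Across the loci, joining summits of different lists, each within 200 bp of the next, gave 46 binding sites, most of them shared by both stimulated lists. Of these, 25 were in both stimulated lists and neither unstimulated list, 12 in stimulated Treg alone and 2 in stimulated Tconv alone. A further 5 were in all 4 lists, and 2 in both stimulated lists and unstimulated Treg. No site was in an unstimulated list alone. The 32 sites in both stimulated lists had Treg and Tconv summits 0 to 70 bp apart with a median of 13.5 bp, and 71.9% were at most 20 bp apart. Over all genes, 47.1% of stimulated Treg summits had a stimulated Tconv summit within 200 bp, at a median of 14 bp, and 66.1% of those were at most 20 bp apart. In 6 of 6 genes the site of highest fold was the same in both stimulated lists. The share of all genes for which this holds was not computed, nor were whole-list shares of these combinations of lists. Whether these counts are particular to the members is therefore unknown.

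**Figure D2:**
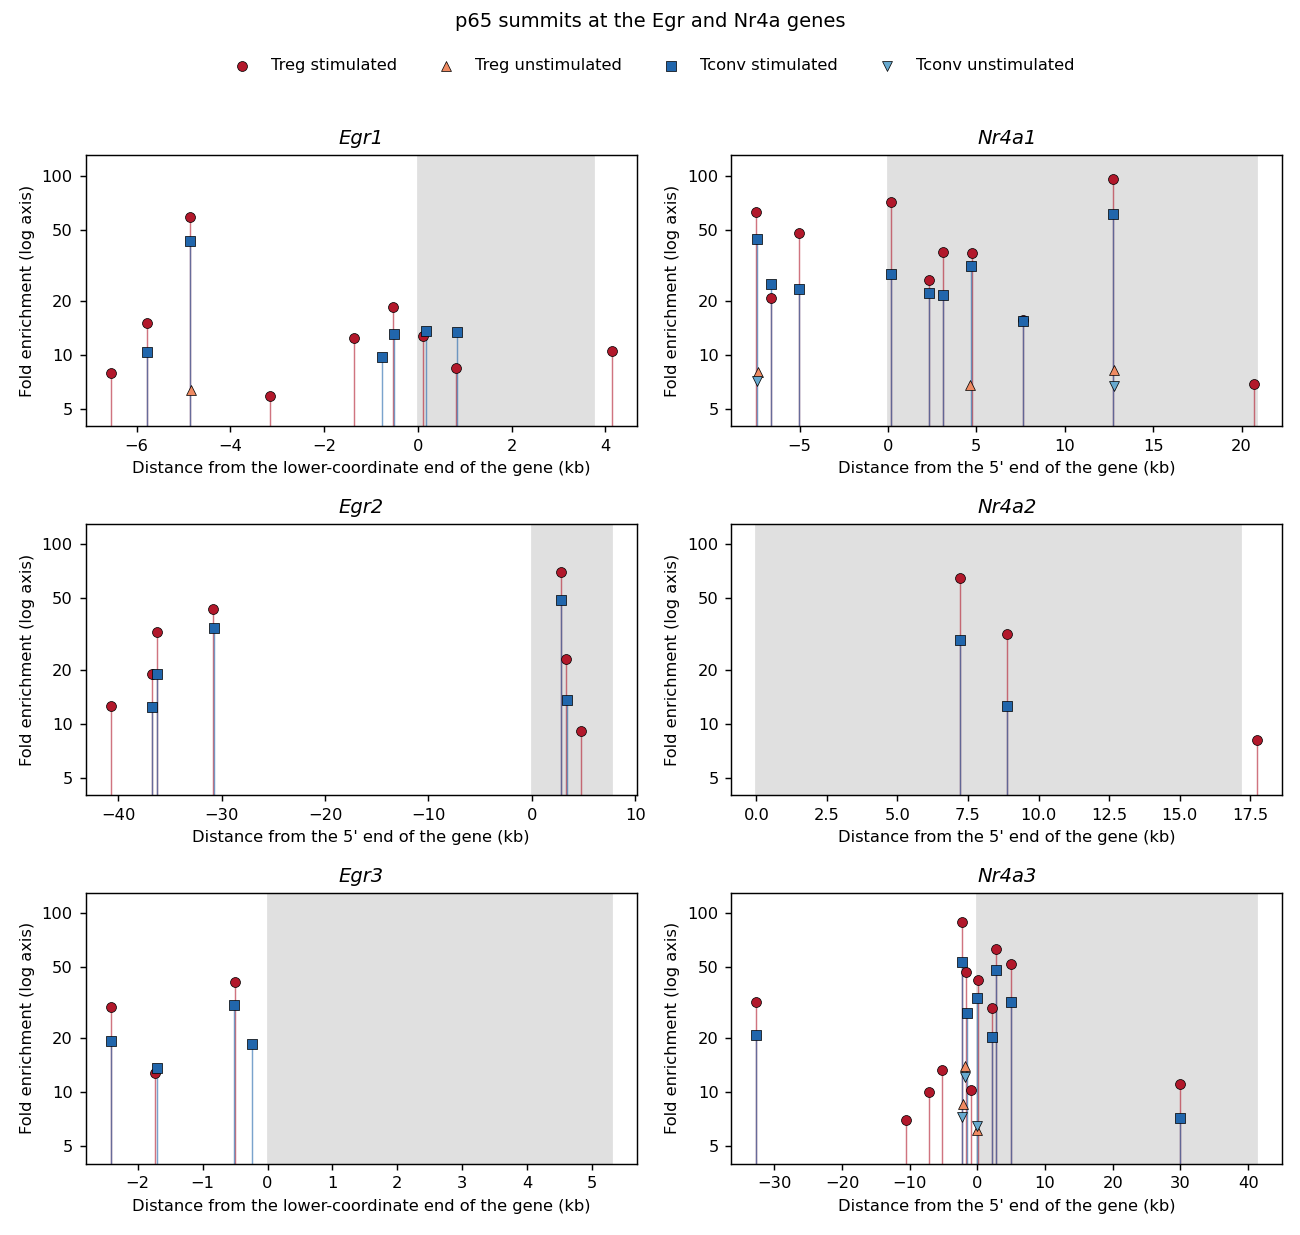
Fold enrichment of each p65 summit (vertical, log axis) against its distance in kb from the 5′ end of the gene, or from the lower-coordinate end for Egr1 and Egr3, for which no strand was taken from the tables. Shading marks the gene body. The sites in all 4 lists are at Nr4a1 and Nr4a3, with unstimulated summits from 6.14- to 14.1-fold.

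Egr1 had its main p65 site outside the gene, 4.85 kb below its lower-coordinate end. That site had 58.7-fold enrichment in stimulated Treg and 6.36-fold in unstimulated Treg, with 43.1-fold in stimulated Tconv and no entry in unstimulated Tconv. It ranked 117 of 13078 entries in stimulated Treg by fold, 2486 of 3442 in unstimulated Treg and 87 of 6480 in stimulated Tconv, and its summits in the 3 lists lay within 8 bp. No other site of Egr1, Egr2 or Egr3 had an unstimulated entry. The other Egr1 sites had 5.93- to 18.6-fold in stimulated Treg and 9.70- to 13.6-fold in stimulated Tconv. Those around the gene start, 0.54 kb outside and 0.11 and 0.81 kb inside, had 18.6-, 12.7- and 8.40-fold in stimulated Treg and 13.1-, 13.6- and 13.4-fold in stimulated Tconv. Sites 6.56, 3.15 and 1.36 kb below the gene and 0.39 kb above it were in stimulated Treg alone, and 1 site 0.77 kb below it was in stimulated Tconv alone. For 2 sites in stimulated Tconv alone, this one and an Egr3 site, a stimulated Treg region nevertheless covered the position.

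Egr2, the EGR gene tied to T cell restraint, was bound near the starts described above and at a distal group of sites upstream, after stimulation and in neither unstimulated list. The strongest site lay 2.78 kb inside the RefSeq gene body, with 69.8-fold in stimulated Treg and 48.7-fold in stimulated Tconv, and summits 2 bp apart. It ranked 49th of 13078 in stimulated Treg and 42nd of 6480 in stimulated Tconv. The distal sites lay 30.81, 36.25 and 36.77 kb upstream of the gene body. They had 43.7-, 32.6- and 19.0-fold in stimulated Treg and 34.3-, 18.9- and 12.4-fold in stimulated Tconv. All 3 lay inside Gm32255, a long non-coding RNA gene that spans 67496359 to 67536180 and overlaps the 5′ part of Egr2. Sites 40.76 kb upstream (12.5-fold) and 4.77 kb inside the gene (9.05-fold) were in stimulated Treg alone.

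Egr3, which acts with Egr2, had a compact group of assigned sites before the gene and no summit inside it. Summits farther out went to Pebp4 under the nearest-gene rule. They include a stronger one 11.04 kb from Egr3, with 54.1-fold in stimulated Treg and 34.4-fold in stimulated Tconv. The strongest assigned site lay 0.50 kb from the lower-coordinate end, with 41.5-fold in stimulated Treg and 30.8-fold in stimulated Tconv. A second site 2.42 kb from that end had 29.8-fold in stimulated Treg and 19.3-fold in stimulated Tconv, with summits at the same base. The third, at 1.74 kb, had 12.8-fold in stimulated Treg and 13.7-fold in stimulated Tconv, and a site at 0.24 kb was in stimulated Tconv alone (18.7-fold). Neither unstimulated list had an entry at Egr3.

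Nr4a1 had summits upstream of and along its gene body, and it had the strongest single entry of the 6 genes. The promoter site described above, 12.74 kb inside the RefSeq gene body, had 95.3-fold in stimulated Treg, 8.19-fold in unstimulated Treg, 61.4-fold in stimulated Tconv and 6.72-fold in unstimulated Tconv. It ranked 5th of 13078 entries in stimulated Treg and 11th of 6480 in stimulated Tconv, against 1699th of 3442 in unstimulated Treg. A site 7.45 kb upstream of the gene body was also in all 4 lists, with 62.4-fold in stimulated Treg, 7.99-fold in unstimulated Treg, 44.5-fold in stimulated Tconv and 7.13-fold in unstimulated Tconv. The site 4.74 kb inside had 37.1-fold in stimulated Treg, 6.80-fold in unstimulated Treg and 31.5-fold in stimulated Tconv, and no entry in unstimulated Tconv. The site 0.17 kb inside the 5′ end of the gene body had 71.6-fold in stimulated Treg and 28.2-fold in stimulated Tconv without an unstimulated entry. Among the Nr4a1 sites, 1 had a higher fold than this one in stimulated Treg and 3 did in stimulated Tconv. The remaining 5 sites in both stimulated lists had 15.6- to 47.7-fold in stimulated Treg and 15.4- to 24.8-fold in stimulated Tconv, and 1 site 20.69 kb inside was in stimulated Treg alone (6.87-fold).

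Nr4a2 was bound inside the gene and at its promoter after stimulation, with no unstimulated entry. The strongest site lay 7.21 kb downstream of the 5′ end, with 65.2-fold in stimulated Treg and 29.3-fold in stimulated Tconv. The neighbouring site at 8.88 kb had 31.6-fold in stimulated Treg and 12.5-fold in stimulated Tconv. A site 0.58 kb past the 3′ end was in stimulated Treg alone (8.15-fold). The stronger intragenic site ranked 69th of 13078 in stimulated Treg and 366th of 6480 in stimulated Tconv.

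Nr4a3 had the most sites, 12, and the strongest unstimulated entries. The site 2.29 kb upstream of the gene body had 89.0-fold in stimulated Treg, 8.64-fold in unstimulated Treg, 53.1-fold in stimulated Tconv and 7.30-fold in unstimulated Tconv. The site 1.62 kb upstream had 47.2-, 14.1-, 27.6- and 12.2-fold in the same order of lists, and its unstimulated summits lay up to 218 bp from the stimulated ones. Those unstimulated summits lay 1.79 kb upstream in Treg and 1.82 kb upstream in Tconv. Whether they mark the same position as the stimulated ones was not tested. The 2.29 kb site had the higher fold of the pair in both stimulated lists. In both unstimulated lists the summits joined to the 1.62 kb site had it. The promoter site had 42.5-, 6.14-, 33.8- and 6.46-fold. Sites 2.69 and 4.99 kb inside the gene had 63.3- and 52.0-fold in stimulated Treg and 48.2- and 31.8-fold in stimulated Tconv, without unstimulated entries. A distal site 32.65 kb upstream had 31.8-fold in stimulated Treg and 20.9-fold in stimulated Tconv, and one 29.91 kb inside the gene had 11.1- and 7.23-fold. Sites 10.51, 7.18, 5.26 and 1.01 kb upstream were in stimulated Treg alone, with 7.01- to 13.3-fold.

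The genes differed among themselves in how many summits they held. In stimulated Treg, Nr4a3 had 12 entries, Nr4a1 10, Egr1 9, Egr2 7 and Egr3 and Nr4a2 3 each. In that list 82 genes, Nr4a3 included, had 12 or more entries, 136 had 10 or more and 1195 had 3 or more. In stimulated Tconv, Nr4a1 had 9 entries, Nr4a3 8, Egr1 6, Egr2 5, Egr3 4 and Nr4a2 2, with 9 or more at 31 genes and 2 or more at 1095 genes. Several summits often shared 1 region, where overlapping entries of a list were merged. Regions with more than 1 summit were 8 of 28 member regions in stimulated Treg (28.6%, against 14.7% of all regions) and 8 of 17 in stimulated Tconv (47.1%, against 11.0%). The Nr4a3 promoter region spanned 6690 bp with 6 summits in stimulated Treg, and in stimulated Tconv the Nr4a1 promoter region spanned 11463 bp around a single summit.

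Within the stimulated lists member summits were strong for the list, and within the unstimulated lists they were not. The member median was 24.7-fold in stimulated Treg, against 11.2-fold for all entries, and 21.8-fold in stimulated Tconv, against 12.6-fold for all. It was 7.99-fold in unstimulated Treg, where all entries had 8.13-fold, and 7.13-fold in unstimulated Tconv, where all entries had 8.31-fold. The upper 10% of a list held 21 of 44 member entries in stimulated Treg and 15 of 34 in stimulated Tconv, and 0 of 7 in unstimulated Treg and 0 of 5 in unstimulated Tconv. Nr4a entries had a median of 31.8-fold in stimulated Treg and 27.6-fold in stimulated Tconv, and Egr entries 15.1- and 13.7-fold. The folds are the authors' values relative to local background and place a summit within its own list, so they are given side by side and not compared between lists.

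**Figure D3:**
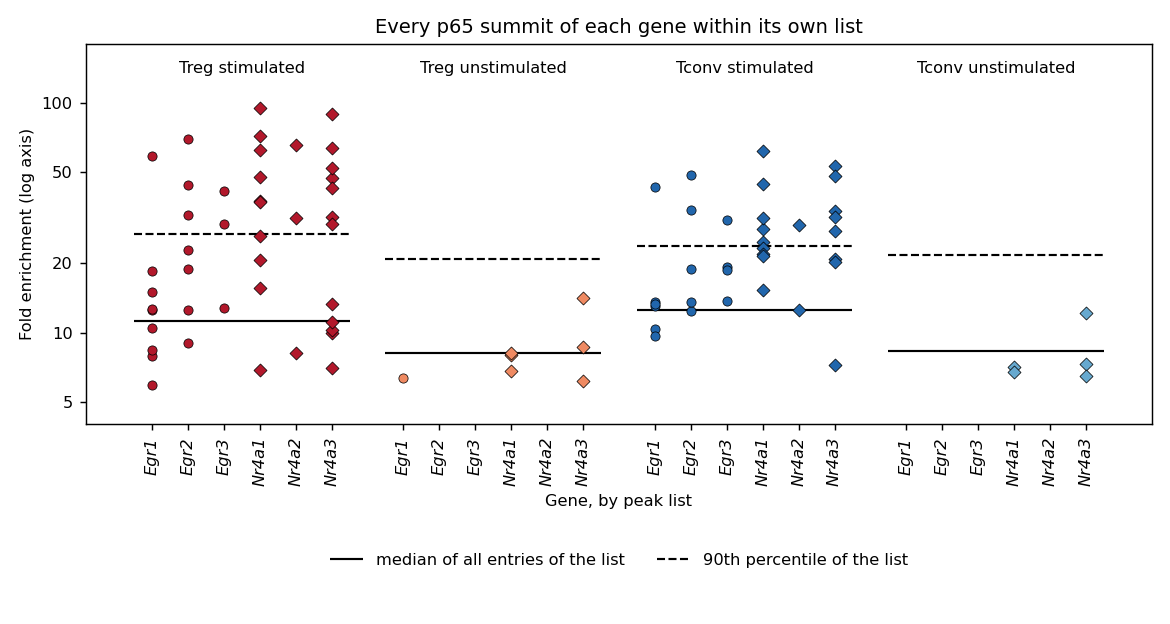
Fold enrichment (vertical, log axis) of every summit of each gene, by peak list, with circles for Egr and diamonds for Nr4a genes, and with the list's median (solid line) and 90th percentile (dashed line). Of the stimulated Treg summits 21 of 44 are in the upper 10% of their list, and the unstimulated summits stay below that line.

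The first comparison asked which p65 regions were found after stimulation and not before it. All 6 genes had a region in stimulated Treg, against 3 in unstimulated Treg (Egr1, Nr4a1 and Nr4a3), where 25.2% and 13.4% of 21887 protein-coding genes had one. In Tconv, 6 of 6 genes had a stimulated region and 2 (Nr4a1 and Nr4a3) an unstimulated one, where 16.5% and 12.5% of all genes had one. Of 28 stimulated Treg regions at these genes, 23 (82.1%) had no unstimulated Treg counterpart, meaning no overlapping region, which was near the 77.3% over the whole list. Of 17 stimulated Tconv regions, 14 (82.4%) had no unstimulated counterpart, against 67.4% over the whole list. In the other direction, 0 of 6 unstimulated Treg regions lacked a stimulated counterpart (21.6% over the whole list), and 0 of 4 unstimulated Tconv regions did (36.3%). That count rests on the rule that 1 bp of overlap suffices: with a reciprocal overlap of 50%, 6 of 6 unstimulated Treg regions (35.2% over the whole list) and 4 of 4 unstimulated Tconv regions (51.0%) had no stimulated counterpart. Each of these unstimulated regions lay wholly inside a stimulated one and covered less than 50% of it, such as 750 of 4519 bp at Nr4a1 in Treg. All regions of Egr2, Egr3 and Nr4a2 were without an unstimulated counterpart in both cell types. Under the 1 bp rule, those with one numbered 3 of 8 at Nr4a1, 1 of 7 at Nr4a3 and 1 of 4 at Egr1 in Treg, and 2 of 6 at Nr4a1 and 1 of 3 at Nr4a3 in Tconv.

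Between the cell types, most stimulated regions at these genes overlapped by at least 1 bp. Those of Treg without a Tconv counterpart were not among the strongest of the list. After stimulation 6 of 28 Treg regions (21.4%) had no Tconv counterpart, against 49.3% over the whole list, and 0 of 17 Tconv regions lacked a Treg counterpart, against 4.15%. The Treg count moved with the rule: it was 13 of 28 (46.4%, against 54.6% over the whole list) with a reciprocal overlap of 50%, 3 of 24 (12.5%, against 38.1%) at a common −log10 p and 1 of 18 (5.56%, against 30.1%) with equal list lengths. The 6 had at most 13.3-fold enrichment in Treg, where the median of all entries was 11.2-fold. They lay at Nr4a3 (3), Egr1, Egr2 and Nr4a2 (1 each). Over single summits, the 12 sites in stimulated Treg alone had 5.93- to 13.3-fold with a median of 9.55, against a median of 34.9-fold in the same list for sites in both. Of the 12, 9 were under the median of all stimulated Treg entries. The stimulated Tconv list ends at a −log10 p of 38.1 and the stimulated Treg list at 26.6, and 6 of the 12 sites were under 38.1 in Treg. A stimulated Tconv region covered the position of 5 of the 12. These were the Egr1 sites 6.56 and 1.36 kb below the gene and the Egr2 site 4.77 kb inside. The others were the Nr4a1 site 20.69 kb inside and the Nr4a3 site 1.01 kb upstream. Without stimulation, 2 of 6 Treg regions (33.3%) had no Tconv counterpart, at Egr1 (6.36-fold) and Nr4a1 (6.80-fold), against 20.6% over the whole list. Of the 4 unstimulated Tconv regions 0 lacked a Treg counterpart, against 13.9%.

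**Figure D4:**
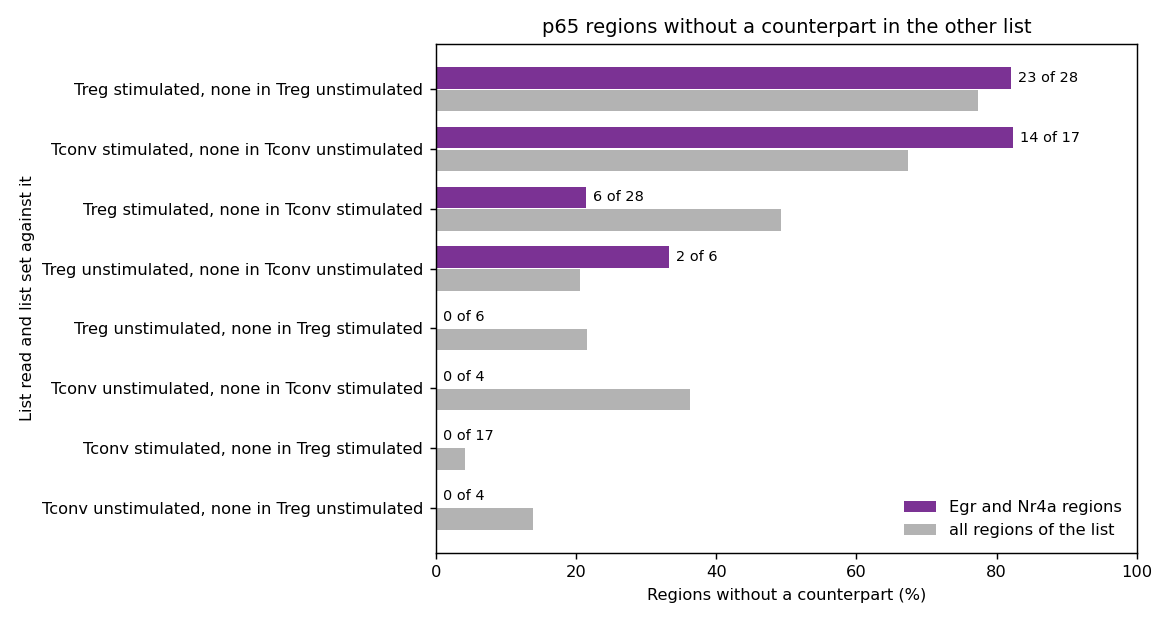
Percent of p65 regions without an overlapping region in the other list (horizontal) for 8 readings of the lists, for the regions of the Egr and Nr4a genes (purple, counts beside the bars) and for all regions of the list (grey). Stimulated Treg regions at these genes lacked a stimulated Tconv counterpart in 6 of 28 cases, against 49.3% of the whole list.

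Related genes of the pathway were read from 5 lists, to be set beside all protein-coding genes, of which 25.2% had a stimulated Treg region and 13.4% an unstimulated Treg one, with 16.5% for stimulated Tconv and 12.5% for unstimulated Tconv. Of the 6 family relatives and partners, the co-repressors of EGR proteins, Nab1 and Nab2, had a region in both stimulated lists, with 61.9- and 61.4-fold in stimulated Treg and 44.6- and 38.4-fold in stimulated Tconv for the strongest. Nab1 also had one in unstimulated Treg (11.0-fold) and unstimulated Tconv (5.51-fold). Egr4 and the retinoid X receptor genes Rxra, Rxrb and Rxrg had none in stimulated Treg. Among the 10 genes of upstream factors, regions were found at 8 in stimulated Treg, against 5 in unstimulated Treg, and at 7 in stimulated Tconv, against 3 in unstimulated Tconv. Over all genes the shares were the 25.2%, 13.4%, 16.5% and 12.5% just given. Srf and Elk1 had none in stimulated Treg. The highest folds of stimulated Treg were at Nfatc1, an NFAT gene (58.3-fold), and at Elk3 (55.6-fold) and Elk4 (38.1-fold), which encode ETS partners of serum response factor. In stimulated Tconv these genes had 42.0-fold (Nfatc1), 46.9-fold (Elk3) and 22.3-fold (Elk4).

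Genes described as regulated by the members had regions of their own. Of 12 described for Egr2 and Egr3, stimulated Treg had a region at 10, against 4 in unstimulated Treg, and stimulated Tconv at 9, against 4 in unstimulated Tconv. Over all genes, 25.2% had one in stimulated Treg, against 13.4% in unstimulated Treg, and 16.5% in stimulated Tconv, against 12.5% in unstimulated Tconv. The highest folds of stimulated Treg were at Fasl, a death ligand gene (51.7-fold), Dgka, a diacylglycerol kinase gene (51.6-fold), and Cblb, a ubiquitin ligase gene (49.6-fold). In stimulated Tconv these genes had 35.2-fold (Fasl), 35.4-fold (Dgka) and 26.5-fold (Cblb), and Dgkz, another diacylglycerol kinase gene, had 27.8-fold. Itch and Rnf128 had none in stimulated Treg. For Nr4a factors, the list of 12 targets and partners had 11 genes with a region in stimulated Treg, against 5 in unstimulated Treg, and 7 in stimulated Tconv, against 3 in unstimulated Tconv. Tox had 70.3-fold in stimulated Treg and 47.0-fold in stimulated Tconv, and Il2ra, the IL-2 receptor alpha chain gene, 62.9- and 34.8-fold. Ikzf2, which encodes Helios, had 44.8-fold in stimulated Treg and no region in stimulated Tconv, and Tox2 had none in stimulated Treg. The list of 20 other immediate-early genes had 18 with a region in stimulated Treg, against 12 in unstimulated Treg, and 15 in stimulated Tconv, against 12 in unstimulated Tconv, beside the same shares over all genes. In stimulated Treg, Fos (66.7-fold), Zfp36 (58.7-fold) and Atf3 (50.2-fold) had the highest folds of that list. In stimulated Tconv, Fos had 51.9-fold, Zfp36 43.0-fold and Atf3 31.8-fold. Junb, named after its value was seen, had 37.1-fold there. Fosl1 and Klf10 had none in stimulated Treg. The median of the strongest fold per gene with a region in stimulated Treg was 61.6 for the relatives, 17.3 for the upstream factors, 34.6 for the Egr2 and Egr3 targets, 31.3 for the Nr4a targets and partners and 27.5 for the other immediate-early genes, against 12.3 for all genes with a region. In unstimulated Treg these medians were 11.0, 7.26, 8.16, 6.14 and 8.28, against 8.73 for all. In stimulated Tconv they were 41.5, 14.9, 24.2, 20.1 and 19.7, against 13.4 for all, and in unstimulated Tconv 5.51, 6.28, 6.65, 6.24 and 6.05, against 8.68 for all. For the relatives these values rest on 2 genes (Nab1 and Nab2) in each stimulated list. In each unstimulated list they are the value of 1 gene (Nab1).

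By the number of regions in the 4 lists, ties broken by the within-list percentile of the strongest region, the genes most like each member were sought among 6332 others. Nr4a1 had 1 gene with the same numbers, Ptp4a2 (8 stimulated Treg, 3 unstimulated Treg, 6 stimulated Tconv and 2 unstimulated Tconv regions), and the next, Tgfbr2, differed by 2 regions. Nr4a3 had none with the same numbers, and Pecam1 and Ankrd11 differed by 1 region. Egr1 shared its numbers with 5 genes, of which Dgkz and Irak2 were nearest by percentile. Like Egr1, both had 4 stimulated Treg, 1 unstimulated Treg and 2 stimulated Tconv regions. Cldn10 and Trp53inp1 were nearest to Egr2, Ptpn6 and Kcnj15 to Egr3, and Sh3gl3 and Tbkbp1 to Nr4a2, with the same numbers in each case. These numbers were shared by 17, 182 and 48 genes, so they say little of likeness there.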

How the data were processed

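Chromatin of T cells was precipitated with an antibody against p65 and sequenced, per the labels' protocols. Per the submitters' processing notes, reads involved the tools MACS2 2.1.1.20160309, BWA 0.7.15-r1140 and Trim Galore 0.4.1 and the mouse build mm10. The names of the 4 deposited lists say that both replicates were pooled, that blacklisted regions were taken out and that a conservative reproducibility filter (IDR) was applied. The role of the input libraries in peak calling is not described in those labels. The fold enrichment (a ratio to local background), −log10 p and score of each summit are the authors' deposited values, and the score equals 10 times the −log10 p (within 1 unit) in 100% of entries. No read numbers are in the lists, so depth is unknown. List length and fold both depend on depth, so neither is read as an amount of binding.

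Overlapping entries were merged into regions carrying the summit of highest fold, and a counterpart overlaps by at least 1 bp. Summits were assigned to the nearest of 21887 protein-coding genes of RefSeq GRCm38.p6, and a summit inside a member was given to it. The gene table has neither exons nor strand. Strand and transcription starts came from RefSeq promoter windows, which matched 4 of the 6 members (8 windows), and no genome was used. The overlap and assignment code was tested on simulated data.

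The members and lists were chosen with earlier results of these data known. The named genes are the members, the 3 genes of each list with the highest fold in stimulated Treg, list genes without a region there (where 5 or fewer), and the 2 genes most like each member. Python 3.11.15, numpy 2.4.6 and matplotlib 3.10.9 were used. The alternatives were a shared −log10 p cut-off, equal list lengths, the upper 50% of each list, distances of 10 and 200 kb, every gene within 50 kb, reciprocal overlap of 50%, summits within 250 bp, and leaving out predicted gene models.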

Additional observations from a re-analysis of the deposited data

How the results depend on the processing

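Of the recomputed counts, 131 stayed within 1.5 times the value reported and 25 did not. Those that stayed include every count with distances of 10 or 200 kb, with summits within 250 bp as the counterpart, and without predicted gene models, an alternative chosen after seeing the data. With all lists cut at the same −log10 p, 38.1, unstimulated Treg kept 1 entry, 1 region and 1 gene, and unstimulated Tconv likewise 1, 1 and 1. Of 24 stimulated Treg regions 3 (12.5%, against 38.1% over the whole list) had no stimulated Tconv counterpart. Of 1 unstimulated Treg region 0 had no unstimulated Tconv one (19.1% over the whole list). In the upper 50% of each list, unstimulated Treg kept 4 entries in 3 regions and unstimulated Tconv 1 entry, 1 region and 1 gene. With equal list lengths, stimulated Treg kept 18 regions. Of these, 13 (72.2%, against 76.1% over the whole list) had no unstimulated counterpart and 1 (5.56%, against 30.1%) no stimulated Tconv counterpart. Of 15 stimulated Tconv regions 1 (6.67%, against 30.8%) had no Treg counterpart. With every gene within 50 kb, 1 of 7 unstimulated Treg regions had no stimulated Treg counterpart (21.6% over the whole list). Of 23 stimulated Tconv regions 1 had no stimulated Treg counterpart (4.15%). Of 6 unstimulated Tconv regions 1 had no stimulated Tconv counterpart (36.3%) and 1 no unstimulated Treg counterpart (13.9%). With a reciprocal overlap of 50%, 6 of 6 unstimulated Treg regions (35.2% over the whole list) and 4 of 4 unstimulated Tconv regions (51.0%) had no stimulated counterpart. Of 28 stimulated Treg regions 13 (46.4%, against 54.6%) had none in stimulated Tconv. Of 17 stimulated Tconv regions 2 (11.8%, against 12.3%) had none in stimulated Treg. Why these counts moved was not tested. A cut-off leaves fewer entries by construction. The unstimulated regions without a stimulated counterpart under reciprocal overlap lay inside wider stimulated ones, as described above. No paired analysis was possible because each list pools both libraries of its group, and for the same reason no library could be left out.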

Other observations

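Several p65 summits near these genes went to a neighbour under the nearest-gene rule. Between Egr3 and Pebp4, a summit 11.04 kb from Egr3 and 6.36 kb from Pebp4 had 54.1-fold in stimulated Treg, and its Tconv counterpart had 34.4-fold. The Treg value is above the 41.5-fold of the strongest site assigned to Egr3. A summit 15.09 kb from Egr3 had 35.6-fold in stimulated Treg, with 24.3-fold at the matching stimulated Tconv summit, and a summit inside Pebp4 had 20.1-fold in stimulated Treg and 15.1-fold in stimulated Tconv. Neither unstimulated list had an entry at these positions.

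On the far side of Egr2, 44.21 kb from it and 37.44 kb from Ado, a summit had 35.1-fold in stimulated Treg, with 20.4-fold at the stimulated Tconv summit 9 bp away. Just past the higher-coordinate end of Ado, 6.89 to 6.97 kb from Egr2, the lists differed from this. A summit was found there in unstimulated Treg (13.3-fold), stimulated Tconv (11.0-fold) and unstimulated Tconv (11.4-fold), and not in stimulated Treg. Which gene any of these positions acts on was not tested.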
